A study of Homo sapiens with 12 samples.

Results

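The clustered histone genes are the protein-coding genes whose older names begin with HIST1, HIST2, HIST3 or HIST4, renamed H1-, H2AC, H2BC, H3C and H4C. They were found by these names among the 58288 gene rows of the count table, and 71 rows were members. The HIST1 cluster on chromosome 6 held 55 of them, HIST2 and HIST3 on chromosome 1 held 12 and 3, and HIST4 on chromosome 12 held 1. By protein, 6 were linker histones H1, 17 were H2A, 18 were H2B, 15 were H3 and 15 were H4. Identifiers of 4 members (H2AC18, H2AC19, H3C2 and H3C3) were matched by position, because the annotation used here no longer carries those identifiers. The names of 5 other genes begin the same way but lie outside the clusters, and they were not counted as members.

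Total RNA was sequenced from HL60/S4, an established human promyelocytic leukaemia cell line, in 12 libraries that make 4 groups of 3. Undifferentiated cells (promyelocytes) received TNF-α at 16 ng/mL or the same volume of water (vehicle) for 2 h. Cells held for 4 days in 1 µM all-trans retinoic acid, or ATRA (granulocytes), received the same treatments. All groups shared the line at 8 passages and calcium supplemented medium, and each library came from its own flask, so p-values measure the spread between flasks of a single cell line. The promyelocyte and granulocyte flasks belonged to separate experiments, and the paper gives different cell densities for them. Cell type, experiment and density therefore cannot be told apart, either in levels or in the difference between the TNF-α responses. Only TNF-α responses and their difference were tested. The question put to the data was whether 2 h of TNF-α changed the RNA of these genes, and whether it did so alike in both cell types.

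A nucleosome is DNA wrapped around an octamer of the core histones H2A, H2B, H3 and H4, and H1 binds the DNA where it enters and leaves. Cells need large amounts of these proteins when DNA is copied, so the clustered genes are transcribed mainly in S phase, under NPAT, the coactivator that gathers at their promoters. Their transcripts have no introns in most cases and end in a short stem-loop instead of a poly(A) tail. The stem-loop binding protein SLBP holds this end, U7 small nuclear RNA guides the cut that makes it, and the transcripts are destroyed quickly when replication stops. Ribosomal RNA depletion keeps RNA without a poly(A) tail, which selection for poly(A) would lose.

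The stem-loop is shown first, because it is the feature the members have in common and it follows the histone class. A stem of 6 bases around a loop of 4 bases was found 23 to 68 bases after the stop codon in 69 of 71 members, and not in H2AC11 or H2AC15. The search took stems without a mismatch inside the annotated gene only, so other stem-loops would be missed. All 15 H4 genes carried a stem that begins GGCCCT, and the other 54 carried GGCTCT. The loop was TTTC in 51 members, TTTA in 10, TTTT in 5, TCTC in 2 and TCTA in 1. The genes below were chosen because their TNF-α responses or levels are described later. The capitals mark both arms of the stem in the hg38 sequence, which is written in the sense of the transcript.
H4C12: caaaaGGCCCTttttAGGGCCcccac
H4C8: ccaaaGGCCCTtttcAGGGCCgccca
H4C9: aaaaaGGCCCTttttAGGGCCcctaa
H4C13: tcaaaGGCCCTtctcAGGGCCaccca
H2BC12: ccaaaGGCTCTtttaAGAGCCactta
H2BC7: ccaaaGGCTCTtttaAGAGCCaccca
H2AC18: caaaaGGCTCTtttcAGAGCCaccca
H3C2: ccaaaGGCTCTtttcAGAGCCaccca
The H4C12 stem-loop lies at chr6:27831173-27831198 on the minus strand. The gene models used for counting covered the stem-loop in 31 members. The models of 32 members held the coding sequence only, so their counts come from coding length, and those of 8 members were neither.

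The promoters also followed the histone class. RefSeq windows on GRCh38.p14, from 250 bases before to 50 bases after a transcription start, existed for 66 members and numbered 70, out of 35116 windows over all genes. Motifs were searched on both strands. The octamer ATTTGCAT, which POU2F1 binds, stood in 11 of 16 H2A and 15 of 20 H2B windows, against 1.77% of all windows, and in 0 of 6 H1, 1 of 15 H3 and 0 of 13 H4 windows. CCAAT was in every H1, H2A, H2B and H3 window but in 3 of 13 H4 windows, against 34.6% of all windows. TATAAA was in 67.1% of the members' windows and 11.5% of all windows. GGTCCG, part of the H4 element that HINFP binds and added after the sequences had been seen, was in 12 of 13 H4 windows, 1 each of the H2A, H2B and H3 windows and 11.3% of all windows. The NF-kappaB consensus of 10 bases was in 3 of the 70 windows and in 5.91% of all windows. The 3 were those of H4C9, H4C11 and H4C12, so it was in 3 of 13 H4 windows. The 250 bases before the start are given for the 3 H4 genes with the smallest granulocyte p-values and for the H2B gene with the smallest p among the decreases. Capitals mark the motifs named here.
H4C12: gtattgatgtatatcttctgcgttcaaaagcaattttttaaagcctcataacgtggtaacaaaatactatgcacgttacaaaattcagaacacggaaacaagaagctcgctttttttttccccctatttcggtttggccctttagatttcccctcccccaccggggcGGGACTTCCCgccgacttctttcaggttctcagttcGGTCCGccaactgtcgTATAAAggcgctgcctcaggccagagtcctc
H4C9: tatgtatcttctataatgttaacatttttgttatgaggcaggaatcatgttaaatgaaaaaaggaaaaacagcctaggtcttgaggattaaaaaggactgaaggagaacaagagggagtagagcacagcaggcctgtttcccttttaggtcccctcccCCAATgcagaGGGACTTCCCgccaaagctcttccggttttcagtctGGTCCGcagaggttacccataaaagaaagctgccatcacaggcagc
H4C8: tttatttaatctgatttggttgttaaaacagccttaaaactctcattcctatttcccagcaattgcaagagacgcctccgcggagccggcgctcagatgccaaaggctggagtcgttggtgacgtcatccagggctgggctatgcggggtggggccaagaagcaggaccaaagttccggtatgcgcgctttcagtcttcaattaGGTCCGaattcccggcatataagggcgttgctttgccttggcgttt
H2BC7: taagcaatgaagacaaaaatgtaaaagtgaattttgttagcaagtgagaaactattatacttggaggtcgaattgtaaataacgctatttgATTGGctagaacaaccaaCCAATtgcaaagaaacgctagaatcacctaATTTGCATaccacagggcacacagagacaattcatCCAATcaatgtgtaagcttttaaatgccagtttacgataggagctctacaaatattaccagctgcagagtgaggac
These windows are chr6:27831561-27831810 (minus strand) for H4C12, chr6:27139032-27139281 (plus) for H4C9, chr6:26285535-26285784 (minus) for H4C8 and chr6:26199266-26199515 (plus) for H2BC7. The NF-kappaB match begins 83 bases before the start in H4C12 and 82 in H4C9, and GGTCCG begins 47 and 46 bases before it. In H4C8 GGTCCG begins 46 bases before the start, and in H2BC7 the octamer begins 111 bases before it. A match is a string of letters, and binding was not measured here.

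Each library held 22829189 to 31895061 counted read pairs. TNF-α target genes rose in both cell types, all 8 of the 8 listed, and the summed level of 10 granulocyte markers was 481 to 509 CPM (counts scaled to a common library size) in vehicle promyelocytes and 6329 to 6795 in vehicle granulocytes. ELANE, a promyelocyte protease, was at 1.46 to 2.02 CPM in vehicle promyelocytes, while MPO was at 6188 to 6637. Replicate 1 of the promyelocytes with TNF-α stood apart from the other 5 promyelocyte libraries. H4 transcripts made up 18.7% of its summed histone level, against 22.8% to 23.4% in the other 5, and its summed level of 30 listed small RNAs was 2075 CPM, against 3804 to 6666. The counts, medians and summed level of the members in promyelocytes are therefore also given without it, but the values of the other gene lists are not. Levels are CPM on library sizes scaled by TMM, a method that sets the bulk of genes to no change.

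Histone RNA was abundant, and it was spread unevenly over the members. The 71 genes took 1.67% to 2.03% of all counts in promyelocytes and 0.936% to 1.05% in granulocytes. The 10 members with the most counts held 48.2% of the summed level. Over the 12 libraries, 51 members had at least 100 counts in total, from 761 for H2BC6 to 358888 for H2AC18, 9 had 1 to 99 and 11 had none. Per kilobase of exon, the highest level in each class was that of H2AC18 at 1948, H4C12 at 1758, H3C2 at 1341, H2BC12 at 1130 and H1-4 at 922 CPM per kb. Next came H2AC13 at 934 and H2AC12 at 789 among the H2A genes, H4C3 at 865 and H4C14 at 529 among the H4 genes, and H3C11 at 622 and H3C14 at 603 among the H3 genes. H1-2 stood at 848 and H1-5 at 636, and H2BC17 stood at 622 and H2BC4 at 473 CPM per kb.

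A run of members with few or no reads lay inside the HIST1 cluster. It covered 11 neighbouring rows at chr6:26219045-26273356, 8 of them members, which held 12 counts in all 12 libraries together out of 331074647. H3C6, H1-3, H4C6, H4C7, H3C7 and H2BC9 were at 0, H3C8 had 3 counts and H2BC10 had 7, so 10 of the 12 counts were on members. On either side, H2AC8 had 9431 counts and H4C8 had 60836, and 60.1 kb lay between the end of H2AC8 and the start of H4C8. A count of 0 in a library allows a level of up to 3 counts, which was 0.0953 to 0.135 CPM. None of these 8 members shares a window of 150 bases with another row or overlaps a gene of its strand, and DNA was not measured here.

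**Figure D1:**
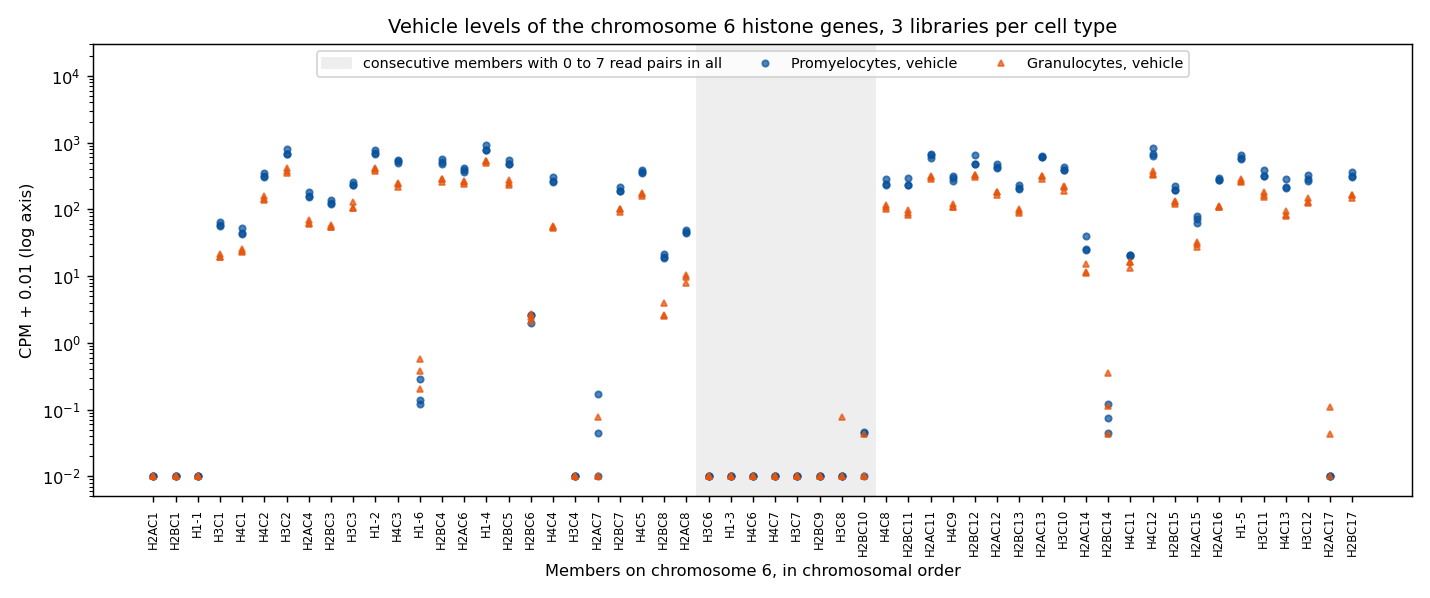
Level of each chromosome 6 histone gene in the vehicle libraries (CPM + 0.01, log axis), in chromosomal order, with the libraries of both cell types as points. The 8 members between H2AC8 and H4C8 lie under the floor of 3 counts in every library, and most other members lie lower in granulocytes than in promyelocytes.

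The other 12 members under 100 counts were scattered. H3-7, H3C4, H2AC7 and H2AC17 overlap another gene of the same strand over 88.0% to 100% of their exons, and read pairs that fall on more than one gene were dropped at counting. H3-4, H2AC25 and H2BC26 make up the HIST3 cluster and had 0, 4 and 17 counts. H2AC1, H2BC1, H1-1 and H1-6 lie toward the start of HIST1 and had 0, 3, 0 and 87 counts, and H2BC14 had 31. H1-6 encodes a testis linker histone, and H2BC1 and H2AC1 encode testis histones.

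The vehicle groups of the cell types differed in level across the family. Of the 52 members tested in either fit below, 50 were lower in all 3 vehicle granulocyte libraries than in all 3 vehicle promyelocyte libraries, and H2BC6 and H1-6 overlapped. The median log2 ratio was -1.03, and by class it was -0.76 for H1, -1.09 for H2A, -1.003 for H2B, -1.02 for H3 and -1.14 for H4. The ratio was lowest for H2BC8 (0.1499), H4C4 (0.194) and H2AC8 (0.203). H2BC8 and H2AC8 adjoin the run with few or no reads, while H2BC7 and H4C5, which lie between H4C4 and H2BC8, had ratios of 0.490 and 0.453. H2AC20 and H2AC21, neighbours in HIST2, kept ratios of 0.795 and 0.804. These are descriptions, since the cell types were separate experiments. In RNA from whole cultures, fewer cells in S phase and less histone RNA in each cell cannot be told apart.

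In promyelocytes, 1 histone gene passed the test after TNF-α, and the summed level overlapped between the groups. The summed level was 20649, 18281 and 17959 CPM in the vehicle libraries and 16573, 20058 and 19095 CPM with TNF-α. The ratio of the means was 0.980 (1.03 without replicate 1 of the TNF-α group). Of 71 members, 51 passed the filter on low counts, and 1 of these rose and 0 fell (edgeR's quasi-likelihood test, Benjamini-Hochberg adjusted over 16250 genes), against 8.15% of all genes increased and 6.65% decreased. At an unadjusted p under 0.05, 4 members were higher and 5 lower. DESeq2 also called 1 increase and 0 decreases, against 8.08% and 5.85% of its genes. The median log2 fold change of the members was -0.05, beside -0.01 for all genes.

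The member that rose was H3C14, which encodes histone H3 in the HIST2 cluster. Its level was 1312, 1184 and 1159 CPM in the vehicle libraries and 1384, 1498 and 1415 CPM with TNF-α. All 3 TNF-α libraries were higher, by 0.23 ± 0.06 (SE, log2 scale, n = 3 per group, edgeR adjusted p = 0.0134). H3C14 has a copy, H3C15, identical over every window of 150 bases, and with the counts of both added the change was 0.23 ± 0.06 with an edgeR adjusted p of 0.0169. The call was lost in 3 of the 6 fits that leave out 1 library, and without replicate 1 of the TNF-α group the change was 0.26 (edgeR adjusted p = 0.00692). Only 2 members, H3C14 and H2AC20, were higher in all TNF-α libraries and 1, H2BC8, was lower, against 16.0% and 15.1% of all genes. Without replicate 1 of the TNF-α group, 3 members rose and 0 fell, and the members' median was 0.03.

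In granulocytes, TNF-α raised 18 members and lowered 4 of the 52 that passed the filter (edgeR, adjusted over 16944 genes), against 24.4% and 24.8% of all genes. DESeq2 called 16 and 4, against 3646 and 3437 of the 20271 genes to which it gave an adjusted p. So the increases made up a larger share of the members than of all genes on this scale and the decreases a smaller share, but the list as a whole was not tested, and both relations were the other way once the trends of each library's counts with GC content and exonic length were removed. All 3 TNF-α libraries lay above all 3 vehicle libraries in 16 members and below them in 4, against 27.3% and 27.9% of all genes. The summed level was 9932, 8954 and 9650 CPM with vehicle and 10406, 10407 and 9804 CPM with TNF-α, which overlapped, and the ratio of means was 1.07. The members' median was 0.09, beside -0.005 for all genes. Without replicate 2 of the vehicle group the count was 11 increases and 7 decreases, and without replicate 1 of the vehicle group it was 20 and 1. Without the GC and length trends, or with library totals, the median of the members was below 0, as set out below. The alternatives called 10 to 26 members in all, the fewest with all 12 libraries in 1 fit.

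By histone class, TNF-α raised 8 of 13 H4 genes tested, 4 of 13 H2A genes, 3 of 13 H2B genes, 2 of 9 H3 genes and 1 of 4 H1 genes, against 24.4% of all genes. The classes were not tested against each other. It lowered 3 H2A genes and 1 H2B gene, and 0 H4 genes, of which 0 were also lower at an unadjusted p under 0.05 or by DESeq2. All 13 H4 fold changes were above 0 on this scale, from 0.08 to 0.48 with a median of 0.30, though not in every alternative given below, while the class medians were 0.06 for H2A, 0.02 for H2B, 0.01 for H3 and 0.04 for H1. In the 6 fits that each left out a library there were 6 to 10 H4 increases and 0 decreases, with 13 of 13 fold changes above 0 each time. In promyelocytes 0 of 13 H4 genes were called in either direction (edgeR), 1 had an unadjusted p under 0.05, DESeq2 also called 0, and their median was -0.11 (0.03 without replicate 1 of the TNF-α group).

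The summed H4 level showed the same order of libraries. In granulocytes it was 2067, 1853 and 1995 CPM with vehicle and 2276, 2506 and 2209 CPM with TNF-α. All 3 TNF-α libraries were higher, and the ratio of means was 1.18. H4 transcripts made up 20.7% to 20.8% of the summed histone level with vehicle, and 21.9%, 24.1% and 22.5% with TNF-α. As a share of all counts in the library, without TMM, H4 took 0.194% to 0.218% with vehicle and 0.214% to 0.239% with TNF-α, and these ranges overlapped. The summed H1 level was also higher in all 3 TNF-α libraries, with a ratio of 1.09, while H2A, H2B and H3 overlapped. The H1 gap was narrow, from 1221.7 CPM in the highest vehicle library to 1224.3 CPM in the lowest TNF-α library. As a share of all counts, H1 took 0.118% to 0.128% with vehicle and 0.119% to 0.130% with TNF-α, which overlapped.

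**Figure D2:**
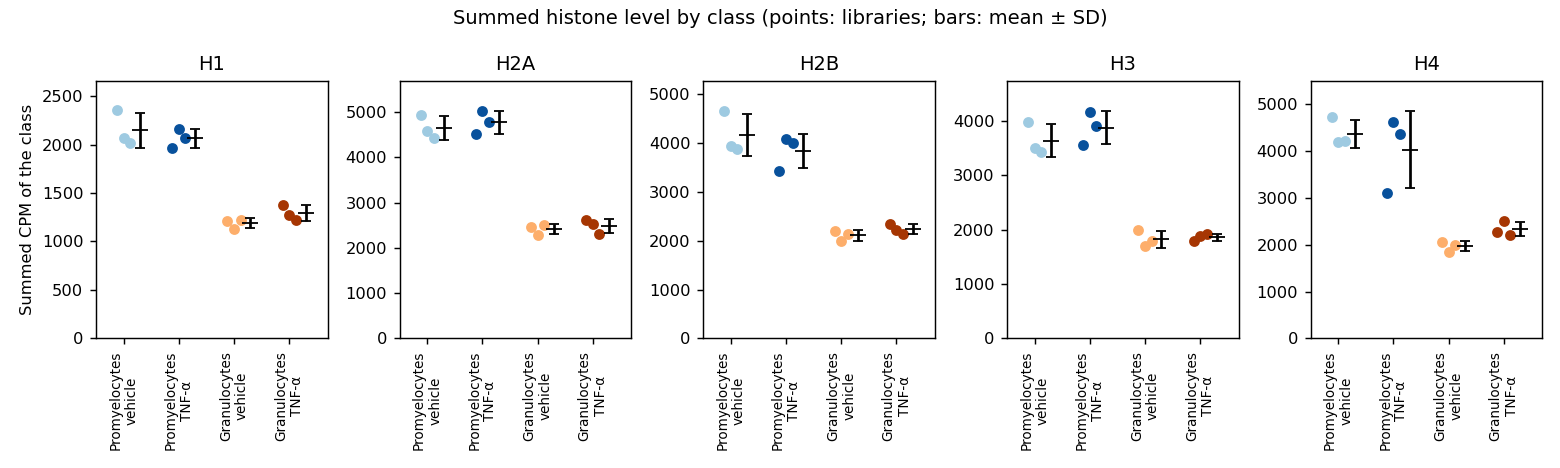
Summed level of each histone class (CPM) in every library, with the mean and SD of each group of 3. In granulocytes the H4 sum of every TNF-α library lies above every vehicle library on this TMM scale, and in promyelocytes the H4 sum of replicate 1 with TNF-α lies lowest.

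H4C12, an H4 gene of HIST1 whose stem-loop and promoter are given above, had the smallest p of the family. Its level was 371, 333 and 328 CPM in vehicle granulocytes and 474, 529.7 and 433 CPM with TNF-α. The groups did not overlap, and the increase was 0.48 ± 0.06 (SE, log2, n = 3 per group, edgeR adjusted p = 9.1e-09). With the GC and length trends removed the increase was 0.15 ± 0.05 (edgeR adjusted p = 0.0104). In promyelocytes it was at 839.8, 633 and 682 CPM with vehicle and 484, 784 and 688 CPM with TNF-α, and these groups overlapped. H4C12 shares all of its 150-base windows with H4C11. With both sets of counts added, the granulocyte change was 0.47 ± 0.06 (edgeR adjusted p = 1.656e-08).

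H4C8 and H4C9 followed. H4C8, the first active gene after the run with few or no reads, was at 116, 99.95 and 108 CPM with vehicle and 141, 155 and 137 CPM with TNF-α in granulocytes, a rise of 0.42 ± 0.06 (edgeR adjusted p = 5e-08). H4C9 was at 119, 106 and 109.6 CPM with vehicle and 136, 156 and 136 CPM with TNF-α, a rise of 0.36 ± 0.06 (edgeR adjusted p = 1.3e-06). Neither gene's groups overlapped. The windows of H4C9 and H4C12 hold the NF-kappaB consensus, the window of H4C8 does not, and H4C11, whose window holds it, was at 16.3, 13.3 and 16.4 CPM with vehicle and 17.1, 18.9 and 14.4 CPM with TNF-α, which overlapped. H4C11 shares 72.8% of its 150-base windows with H4C12, so its value is uncertain. A relation between the motif and the response was not tested.

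Lower in level, H4C4, H4C13 and H4C1 also rose. H4C4 was at 55.7, 51.9 and 53.6 CPM with vehicle and 66.5, 70.9 and 62.4 CPM with TNF-α (0.31 ± 0.06, edgeR adjusted p = 1.62e-05). H4C13, a gene whose loop reads TCTC, was at 92.8, 82.0 and 79.1 CPM with vehicle and 109.5, 100.1 and 94.3 CPM with TNF-α (0.26 ± 0.06, edgeR adjusted p = 0.000314). H4C1 was at 25.5, 23.4 and 23.0 CPM with vehicle and 26.5, 37.1 and 29.6 CPM with TNF-α (0.38 ± 0.08, edgeR adjusted p = 0.000217). In all 3 genes every TNF-α library was above every vehicle library, but none of the 3 was called without the trends. Their fold changes were then 0.044 for H4C4, -0.027 for H4C13 and 0.081 for H4C1, with edgeR adjusted p of 0.498, 0.687 and 0.436. The 2 other H4 genes that rose were H4C14 (0.15 ± 0.05) and H4C16 (0.31 ± 0.12), with edgeR adjusted p of 0.0226 and 0.0321, and H4C16 is the only member on chromosome 12. DESeq2 did not call H4C16 (adjusted p = 0.118). The 5 H4 genes that did not pass the test were H4C2 (0.08), H4C3 (0.11), H4C5 (0.13), H4C11 (0.14) and H4C15 (0.30).

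Outside H4, the smallest p in granulocytes was that of H2BC12, an H2B gene with a coding-length model. It was at 329, 309.5 and 324 CPM with vehicle and 433, 393 and 372 CPM with TNF-α, and rose by 0.32 ± 0.05 (edgeR adjusted p = 3.99e-06). Its neighbour H2AC12, within 1 kb on the opposite strand, rose by 0.13 ± 0.05 (edgeR adjusted p = 0.0321), from 179.7, 165 and 183.5 CPM to 194, 199.7 and 184.0 CPM. H2AC15, 1 of the 2 members in which no stem-loop was found, was at 29.8, 27.2 and 31.9 CPM with vehicle and 38.9, 40.2 and 35.5 CPM with TNF-α (0.37 ± 0.07, edgeR adjusted p = 1.89e-05). H2AC15 lies inside H2BC15 on the opposite strand, and counting used the strand. H2BC15 itself had a fold change of 0.05 ± 0.05 (edgeR adjusted p = 0.417). Removal of the trends ended the calls of H2BC12 (0.034, edgeR adjusted p = 0.531) and H2AC15 (0.080, edgeR adjusted p = 0.282) and turned H2AC12 into a decrease (-0.15, edgeR adjusted p = 0.00169).

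H1-4, the linker histone gene with the highest level per length, was at 528, 500.1 and 531 CPM with vehicle and 671, 586 and 579.7 CPM with TNF-α. These groups did not overlap, and H1-4 rose by 0.24 ± 0.05 (edgeR adjusted p = 0.00037), but by the fit without the trends its value was 0.036 (edgeR adjusted p = 0.523). H1-2 and H1-5, the other linker genes with high levels, had fold changes of -0.03 ± 0.05 and 0.11 ± 0.05 with edgeR adjusted p of 0.711 and 0.0872. H2AC14 was at 14.9, 11.4 and 11.2 CPM with vehicle and 21.4, 15.7 and 14.4 CPM with TNF-α, and the groups overlapped (0.46 ± 0.11, edgeR adjusted p = 0.000713). H2AC14 shares 76.9% of its 150-base windows with H2AC13, which has 23.0 times its counts and was called in the other direction, so its value is uncertain. With both sets of counts added, the change was -0.09 ± 0.05 (edgeR adjusted p = 0.1247). The remaining increases were H2AC18, H2BC11, H2BC17, H3C1 and H3C15, from 0.14 to 0.21.

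**Figure D3:**
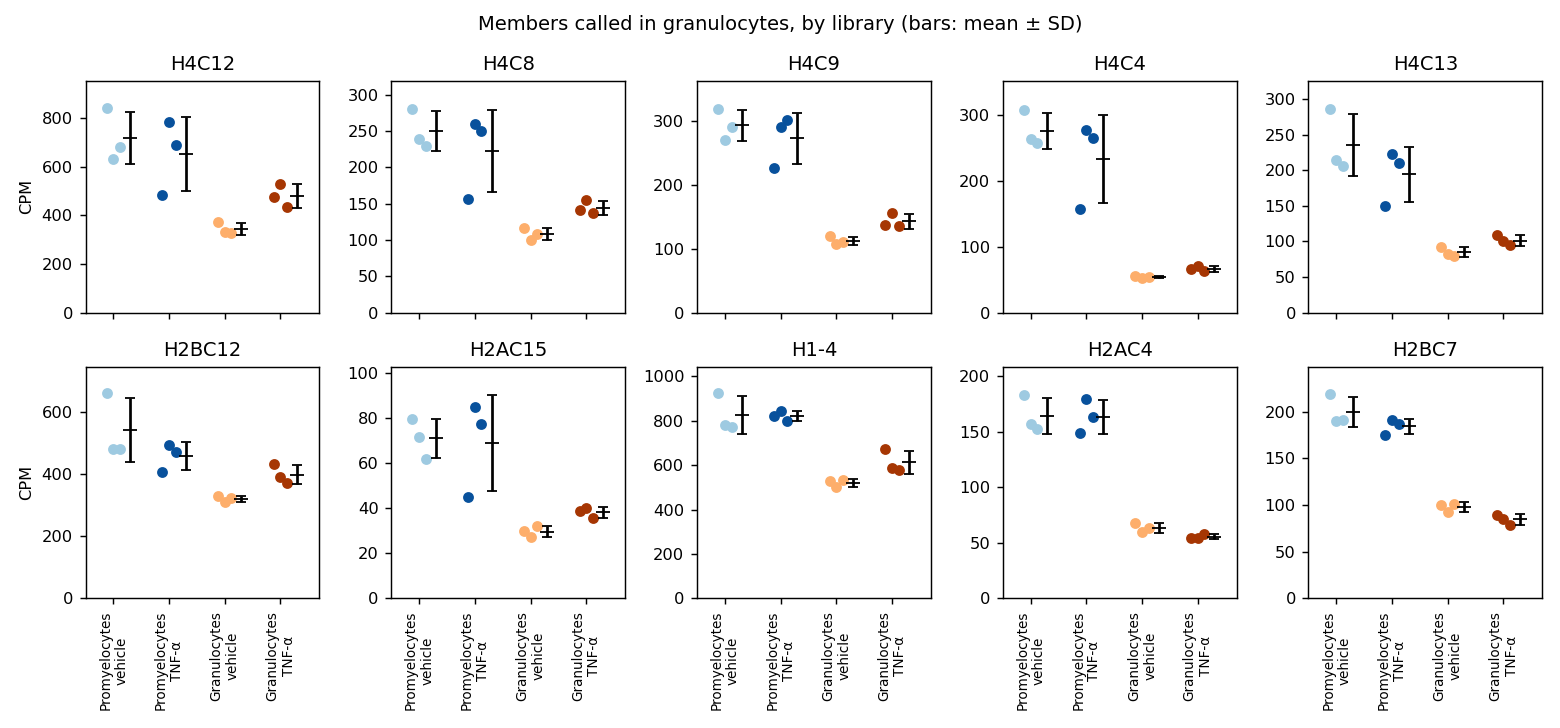
Level (CPM) of members called in granulocytes in each library of the 4 groups, with the mean and SD of 3. Points of the TNF-α granulocytes lie above those of the vehicle granulocytes in the H4 panels, and below them in the H2BC7 panel.

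The 4 members that fell in granulocytes were H2BC7, H2AC4, H2AC6 and H2AC13. H2BC7 was at 100.3, 92.0 and 101 CPM with vehicle and 89.5, 85.04 and 78.8 CPM with TNF-α (-0.21 ± 0.05, edgeR adjusted p = 0.00145). H2AC4 was at 68.1, 59.4 and 63.0 CPM with vehicle and 54.4, 54.5 and 58.0 CPM with TNF-α (-0.19 ± 0.06, edgeR adjusted p = 0.00546). In both genes every TNF-α library was below every vehicle library. H2AC6 changed by -0.14 ± 0.05 (edgeR adjusted p = 0.0271) and H2AC13 by -0.12 ± 0.05 (edgeR adjusted p = 0.0421), and the libraries of each group overlapped. Without the trends H2AC4 was at -0.46 and H2AC13 at -0.36, H2BC7 was at -0.19, and H2AC6 was no longer called (-0.10, edgeR adjusted p = 0.0741).

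**Figure D4:**
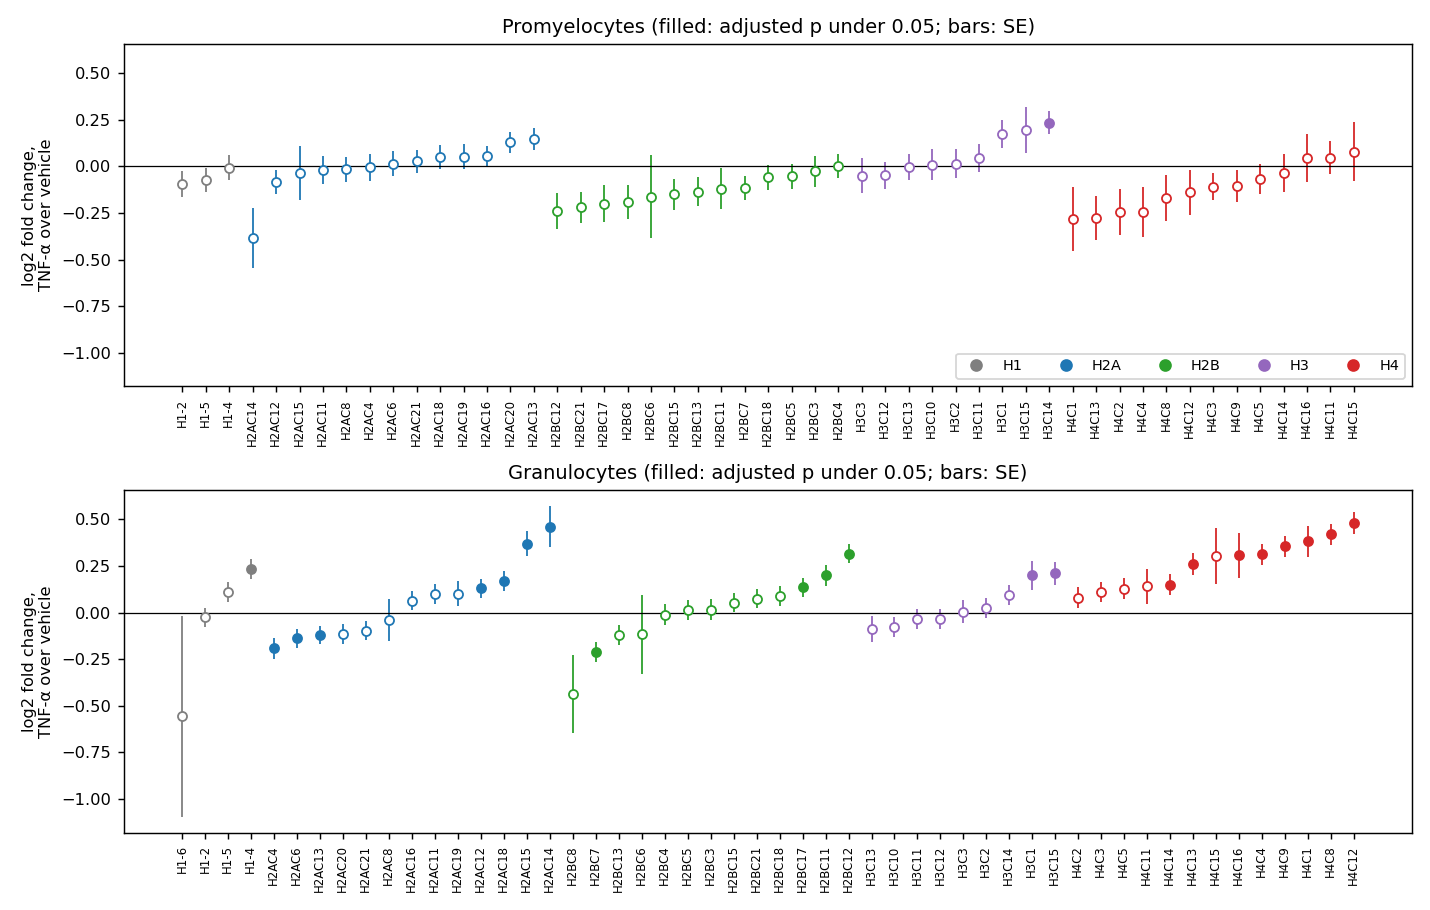
Log2 fold change of TNF-α over vehicle for each member tested, with its SE, in promyelocytes and granulocytes, where filled points have an adjusted p under 0.05. In granulocytes all 13 H4 genes lie above 0 on the TMM scale (9 of 13 with GC and length trends removed, 10 of 13 with library totals), and in promyelocytes H3C14 is the only filled point.

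Members differ from other genes in their base composition and length, and the granulocyte counts moved with these properties. The 52 members had a median GC content of 58.2% and a median exonic length of 556.5 bases, against 47.8% and 3740 bases for the other genes tested. Once the dependence on GC content and length was taken out of every library, 8 members rose and 18 fell, against 22.5% and 28.2% of all genes. The members' median was then -0.08, beside -0.05 for all genes. Of the 18 increases 6 remained (H4C14, H4C8, H2BC11, H4C9, H4C12 and H4C16), 10 were no longer called and 2 (H2AC12 and H2BC17) were called as decreases. Of the 4 decreases 3 remained (H2AC4, H2BC7 and H2AC13). The H4 genes counted 6 increases and 0 decreases, with a median of 0.14 and 9 of 13 fold changes above 0. H2A counted 0 and 7, H3 counted 0 and 6, H2B counted 2 and 4, and H1 counted 0 and 1. The classes differ in GC content themselves. The medians of the genes tested were 49.7% for H4, 48.0% for H2B, 58.4% for H1, 60.6% for H3 and 61.7% for H2A.

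The scaling mattered as well. With library totals in place of TMM, the median of all genes in granulocytes moved from -0.005 to -0.13, and 8 members rose and 14 fell, against 16.6% and 36.8% of all genes. The members' median was then -0.04, above the -0.13 of all genes in the same fit. With TMM it was 0.09, also above the -0.005 of all genes in that fit. The 8 increases were H4C12, H4C8, H4C9, H4C4, H4C1, H2BC12, H2AC15 and H2AC14, and the H4 genes counted 5 increases and 0 decreases, with 10 of 13 fold changes above 0 and a median of 0.17. Across every alternative and every fit that leaves out 1 library, 4 members kept their call in granulocytes, H4C8, H4C9 and H4C12 as increases and H2BC7 as a decrease. Over these fits the fold change ranged from 0.15 to 0.55 in H4C12, from 0.29 to 0.47 in H4C8 and from 0.22 to 0.40 in H4C9.

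**Figure D5:**
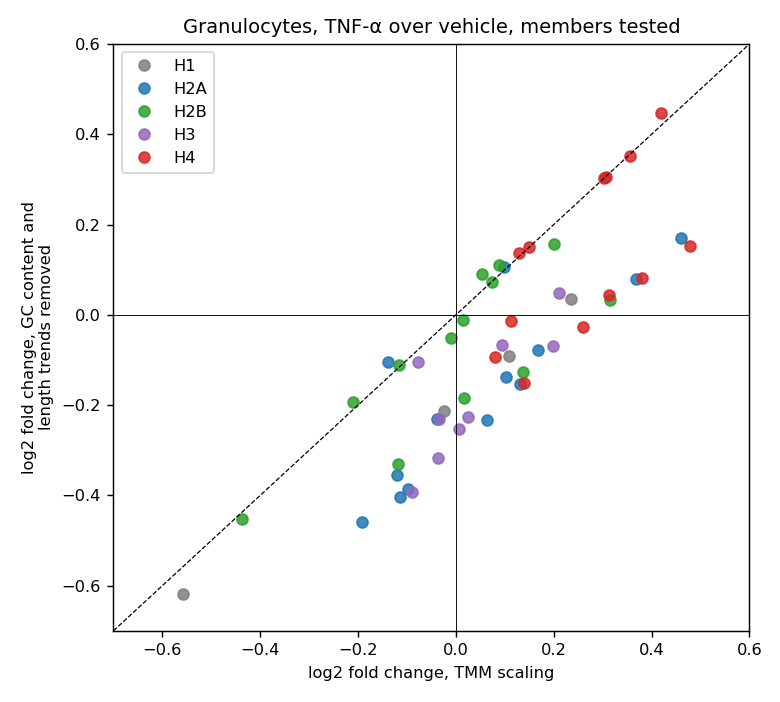
Log2 fold change of each member in granulocytes on the TMM scale (horizontal) and after removal of the GC content and length trends (vertical), by histone class. H4C8 and H4C9 stay near the diagonal, while most short, GC-rich members lie below it. The median of all members moves from 0.09 to -0.08, and that of all genes from -0.005 to -0.05.

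The listed small RNAs moved in the same granulocyte libraries. They are short, structured RNAs without poly(A) tails, and 11 of the 14 tested were called, all as increases, with a median log2 fold change of 0.68, against 24.4% of all genes increased. Without the trends 7 of 14 were called, with a median of 0.45, against 22.5%. DESeq2 called 6 of the 20 with any count, against 3646 increases among the 30348 genes with any count. RN7SL2, an RNA of the signal recognition particle, rose by 1.36 ± 0.10 (edgeR adjusted p = 1.48e-14), and SNORD3A, the U3 small nucleolar RNA, by 1.25 ± 0.13 (edgeR adjusted p = 4.77e-10). The summed level of the list was 3370 to 3478 CPM with vehicle and 7883, 11419 and 6708 CPM with TNF-α, in libraries whose H4 shares were 21.9%, 24.1% and 22.5%. Replicate 2 was highest in both, and the other 2 libraries stood in opposite order. Of the 30 listed, 10 were at 0 in every granulocyte library. In promyelocytes the calls were SCARNA7 and SCARNA9, both as decreases, and the replicate with the lowest H4 share had the lowest sum, 2075 CPM. The part of the small RNAs in the histone results was not tested.

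The difference between the TNF-α responses was tested in a fit of all 12 libraries. Cell type, experiment and cell density cannot be told apart in this difference. Of 52 members, 12 had a higher response in granulocytes than in promyelocytes and 1 (H2AC13) a lower one, against 14.1% and 9.88% of 18124 genes. DESeq2 called 2 and 2, against 12.4% and 14.7%. The median difference was 0.12 for the members and 0.03 for all genes. For the members it was 0.06 without replicate 1 of the promyelocytes with TNF-α, 0.07 without replicate 1 of the vehicle promyelocytes and 0.08 without replicate 2 of the vehicle granulocytes, and it rose to 0.20 without replicate 3 of the granulocytes with TNF-α. It turned to -0.04 with the trends removed and to -0.03 with library totals, where the medians of all genes were -0.03 and -0.12. H4 genes made up 6 of the 12, and all 13 H4 differences were above 0 on this scale (12 of 13 with the trends removed or with library totals), with a median of 0.36. Without replicate 1 of the promyelocytes with TNF-α the H4 median was 0.16, again with 6 calls. The trends removed, it was 0.23 with 2 calls, and DESeq2 called 1 H4 gene. H2B supplied 3, H2A 2 and H1 1, and H3 none of its 9, of which 0 had an unadjusted p under 0.05 and DESeq2 called none higher.

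The smallest p was that of H2BC12, with a difference of 0.60 ± 0.13 (edgeR adjusted p = 0.00111). In promyelocytes its level was 662, 483 and 483 CPM with vehicle and 407, 496 and 473 CPM with TNF-α, and these groups overlapped. H4C9 differed by 0.50 ± 0.12 (edgeR adjusted p = 0.00236), H4C12 by 0.66 ± 0.16 (edgeR adjusted p = 0.00359) and H4C8 by 0.63 ± 0.16 (edgeR adjusted p = 0.00512). Without the trends the differences of H2BC12 and H4C12 were both 0.23 (edgeR adjusted p of 0.137 and 0.226) and no longer called. In promyelocytes H4C9 was at 319, 269.98 and 291 CPM with vehicle and 226, 291 and 301 CPM with TNF-α, and H4C8 was at 281, 239.5 and 229 CPM and 157, 259 and 249.6 CPM. In both genes, the replicate that stood apart gave the lowest promyelocyte value. The other differences with their edgeR adjusted p were 0.58 for H4C13 (0.00952), 0.88 for H2AC14 (0.00962), 0.59 for H4C4 (0.0141), 0.33 for H2BC21 (0.0285), 0.70 for H4C1 (0.0302) and 0.28 for H1-4 (0.0348). H2AC14 shares sequence with H2AC13. With both sets of counts added, the difference was -0.18 ± 0.08 (edgeR adjusted p = 0.116), so neither call held.

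Without replicate 1 of the promyelocytes with TNF-α, 9 members had a higher response in granulocytes and 0 a lower one. The count of higher responses ranged from 7, without replicate 1 of the vehicle promyelocytes or replicate 2 of the vehicle granulocytes, to 19, without replicate 2 of the promyelocytes with TNF-α. With GC and length trends removed, 3 members (H2BC21, H4C8 and H4C9) had a higher response and 10 a lower one, against 11.8% and 12.4% of all genes. With library totals the counts were 7 and 6, against 8.66% and 19.5%. H4C9 alone of the 13 kept its call in every fit made.

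Reads cannot always be assigned to a single histone gene. In 5 pairs the rows share long identical stretches, and reads were split unevenly between the partners. H2AC18 had 358888 counts and H2AC19 had 37817, H3C14 had 334984 and H3C15 had 25235, H4C14 had 332987 and H4C15 had 1881, H4C12 had 183703 and H4C11 had 6127, and H2AC13 had 158138 and H2AC14 had 6887. With the counts of each pair added, the granulocyte change was 0.16 ± 0.05 for H2AC18 with H2AC19 (edgeR adjusted p = 0.0136), 0.15 ± 0.05 for H4C14 with H4C15 (edgeR adjusted p = 0.0213) and 0.10 ± 0.05 for H3C14 with H3C15 (edgeR adjusted p = 0.114). In all, 16 members were uncertain through a copy or an overlap. Of the 40 others tested in granulocytes, 13 rose and 3 fell, against 24.4% and 24.8% of all genes, and with the trends removed 6 rose and 14 fell, against 22.5% and 28.2%.

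Members with long and with short annotated transcripts were counted apart. Models over 1000 bases, which can include a spliced or polyadenylated form, counted 5 increases and 2 decreases of 17 tested in granulocytes, and the shorter models counted 13 and 2 of 35. Of all genes, 24.4% rose and 24.8% fell. The medians were 0.09 and 0.08. With GC and length trends removed the long models counted 6 and 2 and the short ones 2 and 16, where 22.5% and 28.2% of all genes were called. The medians were then 0.09 and -0.14. The median GC content was 47.2% in the long models and 60.1% in the short ones, so the groups differ in more than length.

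Genes that make, process and place histone transcripts and proteins were listed beside the members. NPAT, the coactivator of histone transcription, was at 46.8, 51.5 and 52.6 CPM in vehicle promyelocytes and 64.0, 63.1 and 59.7 CPM with TNF-α, and it rose by 0.31 ± 0.06 (edgeR adjusted p = 0.00196). In granulocytes it was at 44.1, 46.7 and 42.4 CPM with vehicle and 33.0, 36.9 and 40.0 CPM with TNF-α, and it fell (-0.28 ± 0.07, edgeR adjusted p = 0.000494). All 3 TNF-α libraries lay above vehicle in promyelocytes and below it in granulocytes, and the responses differed by -0.55 (edgeR adjusted p = 6.6e-05). SLBP had a fold change of -0.02 ± 0.06 in promyelocytes (edgeR adjusted p = 0.855) and of -0.07 ± 0.06 in granulocytes (edgeR adjusted p = 0.322).

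Of the 22 genes listed for histone transcription and 3′ end processing, all were tested, and 3 rose and 1 fell in promyelocytes, against 8.15% and 6.65% of all genes. Besides NPAT these were CASP8AP2 (0.26), a partner of NPAT, CSTF2 (0.21) and MIF4GD (-0.50), an SLBP partner in translation. In granulocytes 4 rose and 8 fell, against 24.4% and 24.8%. The counts were 3 and 6 with the trends removed, against 22.5% and 28.2%, and 4 and 5 by DESeq2. TUT4, an enzyme that adds uridines to RNA ends, went from 160.1, 163 and 158 CPM to 90.7, 96.2 and 98.2 CPM (-0.75 ± 0.05, edgeR adjusted p = 1.1e-15), and its relative TUT7 changed by -0.22. POU2F1, which binds the octamer of H2A and H2B promoters, went from 76.1, 79.2 and 79.4 CPM to 96.4, 100.1 and 104 CPM (0.36 ± 0.05, edgeR adjusted p = 3.02e-07). SYMPK (0.25, and 0.11 without the trends) rose and CPSF2 (-0.24) fell, both parts of the cleavage complex.

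Histone chaperones carry the proteins to DNA. Of 20 listed, NAP1L1 and ATRX (both 0.21) were the calls in promyelocytes, and 6 rose and 5 fell in granulocytes, against the same shares of all genes. With the trends removed neither promyelocyte call remained, and 0 rose and 1 fell there, against 7.93% and 8.18% of all genes. DAXX, a chaperone of the variant H3.3, rose by 0.51 ± 0.05 in granulocytes and ASF1A, which carries H3 and H4, by 0.28 ± 0.05. NASP (-0.22), which holds H3 and H4 in reserve, HJURP (-0.23), which places CENPA, and HIRA (-0.29) fell. Among 12 histone variant genes outside the clusters, 8 were tested. H3-3B rose (0.20) and MACROH2A1 fell (-0.17) in promyelocytes, and in granulocytes H1-10 rose (0.30) while MACROH2A1 (-0.39) and CENPA (-0.46) fell. H1-10 was not called without the trends (0.10, edgeR adjusted p = 0.188).

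Of 44 DNA replication genes, all were tested, and 4 rose and 2 fell in promyelocytes while 10 rose and 11 fell in granulocytes, against 24.4% and 24.8% of all genes in the latter. With the trends removed 9 rose and 16 fell in granulocytes, against 22.5% and 28.2%, and DESeq2 called 8 and 7. CCNE2, a cyclin of S phase entry, rose in both, by 0.57 ± 0.08 and 0.68 ± 0.06. RRM2 (0.33) and RFC3 (0.24) rose and UHRF1 (-0.23) and CDT1 (-0.28) fell in promyelocytes. In granulocytes CCNA2 (-0.46), UHRF1 (-0.42) and PRIM1 (-0.44) fell and POLE (0.32) rose. The medians of the list were 0.03 and -0.01, and the calls went both ways in each cell type. The summed level of the list overlapped between the groups, at 7052 to 7279 CPM with vehicle and 7092 to 7228 CPM with TNF-α in promyelocytes, and 2587 to 2655 CPM and 2566 to 2632 CPM in granulocytes.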

How the data were processed

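The authors prepared total RNA libraries after ribosomal RNA depletion (RiboZero), aligned read pairs to hg38 with STAR 2.5.3a and counted them on GENCODE genes with featureCounts 1.5.2, as the paper, the submitters' processing notes and the file header state. They deposited raw counts per gene, without normalization. Counting used primary alignments, pairs with both ends mapped, and the reverse strand, and pairs on more than one gene of a strand were dropped. The other tools the submitters name are FastQC 0.11.4 and DESeq2 1.16.1.

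The libraries of a cell type were fitted together, apart from the other type, in edgeR 4.0.16 (R 4.3.3), with TMM scaling, filterByExpr (minimum count 10, minimum total 15), the quasi-likelihood test on 3 against 3 libraries, and Benjamini-Hochberg adjustment over all genes tested with a threshold of 0.05. The difference between responses was the interaction in a fit of 12 libraries with 4 groups. SE were derived from the fold change and the F statistic, and log2 fold changes use a prior count of 0.125. CPM are counts on TMM library sizes. The smallest p that an exact permutation test of 3 against 3 can give is 0.1, so no such test was used for single values, and sums over members were not tested.

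Symbols came from GENCODE, matched by identifier for 57532 rows, with 4 members matched by position and 752 rows left without a symbol. Near-identical copies were found as shared windows of 150 bases. Removal of trends used, in each library, a spline of 5 degrees of freedom on GC content and on exonic length, entered as offsets. DESeq2 1.42.0 was an alternative. The procedure was also run on simulated counts with known changes and the same dispersion for every gene, and the outcome is not reported here. Libraries of the same group differed by 3.58 to 14.3 times the Poisson variance over 12 pairs of libraries, so no library was counted as a duplicate. A floor of 3 counts covers counting error only, and the 3 libraries per group set the precision.

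The members and the gene lists were chosen with earlier results of these data known. Members named with full statistics were the 10 calls with the smallest p in each cell type and in the interaction, the 3 members of each class with the highest level per length, and members in counts of 10 or fewer. From the other lists, up to 5 calls per cell type with the smallest p were named, besides NPAT and SLBP. Promoter windows were taken from RefSeq and stem-loops from hg38. Other software was Python 3.11.15 with pandas 2.3.3, numpy 2.4.6 and matplotlib 3.10.9, and the R package for tables at version 1.17.8. The RT-qPCR measurements and the public RNA-seq data the paper refers to were not analysed here.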

Additional observations from a re-analysis of the deposited data

Results flagged for a closer look

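For 13 members the TNF-α response in granulocytes differed from that in promyelocytes by the interaction test. Each value is the log2 response in granulocytes minus that in promyelocytes within the fit of all 12 libraries. That fit has its own scaling, so a value need not equal the difference of the separate fits. The median of all genes in it was 0.03. The H4 genes were H4C12 (0.66), H4C8 (0.63), H4C9 (0.50), H4C13 (0.58), H4C4 (0.59) and H4C1 (0.70). Among H2B genes the difference was 0.60 for H2BC12, 0.33 for H2BC21 and 0.38 for H2BC17. H2AC14 (0.88) and H2AC12 (0.25) had higher responses in granulocytes, and H2AC13 (-0.23) had a lower one. The values of H2AC14 and H2AC13 are uncertain, because they share sequence. With both sets of counts added, the difference was -0.18 (edgeR adjusted p = 0.116) and was not called. The linker histone gene H1-4 differed by 0.28. Cell type and experiment cannot be told apart in these differences.

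In 7 of the 13 the call was kept in all 12 fits that leave out 1 library, and H4C9 alone kept it in the other alternatives too. For single genes, groups of 3 libraries were not examined for outlying values. Replicate 1 of the promyelocytes with TNF-α was set apart by its small RNA sum and its H4 share, which is itself a histone value.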

How the results depend on the processing

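Counts are members increased and decreased. The share of all genes called changes with the setting too, for example from 24.4% to 16.6% increased in granulocytes with library totals. Shares are given above for some of these fits only, so the counts here do not by themselves show a move of the members. In promyelocytes (1 and 0 as reported) they were 2 and 8 (10) with no expression filter, 1 and 2 (3) with all 12 libraries in 1 fit, 2 and 1 (3) without the GC content and length trends, 3 and 0 (3) with the GC trend alone, 1 and 3 (4) with the length trend alone, 1 and 1 (2) with trends fitted without histone genes, and 1 and 1 (2) with library totals. Leaving out 1 library gave 0 to 3 increases and 0 to 3 decreases, 0 to 3 in all.

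In granulocytes (18 and 4) all 12 libraries in 1 fit gave 9 and 1 (10). Removing both trends gave 8 and 18 (median -0.085, summed level 0.965 times vehicle), and trends fitted without histone genes gave 8 and 18 (median -0.089). The median of all genes was -0.047 with both trends removed and -0.13 with library totals. The GC trend alone left 13 decreases (median -0.024), the length trend alone 11 and 10 (median 0.00047), and library totals 8 and 14 (median -0.040, sum 0.980 times vehicle). Leaving out 1 library gave 11 to 22 increases and 1 to 7 decreases.

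For the difference of responses (12 and 1), DESeq2 gave 2 and 2 (4), DESeq2 size factors left 2 decreases and no expression filter 3. Removing both trends gave 3 and 10, with or without histone genes in the trend fit, the GC trend alone 4 and 8, the length trend alone 6 and 4, library totals 7 and 6, and merged copies 0 decreases. Leaving out 1 library gave 7 to 19 increases and 0 to 2 decreases, 8 to 19 in all.

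Of single members, H4C13 in granulocytes turned to -0.027 without both trends, also with trends fitted without histone genes (-0.031). Without both trends H2AC18 (-0.077) and H3C1 (-0.069) also turned below 0, as did H2AC12 and H2BC17, which were then called as decreases. In the difference of responses H2AC12 turned to -0.12, -0.019 with the GC trend alone and -0.12 with trends fitted without histone genes, and H1-4 to -0.00054 in the last. These settings change only the offsets or the filter, and the cause of each move was not tested. The trend fits one at a time, the trend fit without histone genes, library totals, merged copies and the 5 names outside the clusters were chosen after seeing the data.

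Replicate numbers are shared between groups. The residuals of same-numbered vehicle and TNF-α libraries correlated at -0.1985, -0.0912 and -0.0938 in promyelocytes and at -0.0843, -0.00849 and -0.0988 in granulocytes, so the numbers were not taken as pairs, and no library correlated best with its own number. With the replicate number as a block, 0 members were called in promyelocytes (0 increases), 15 rose and 2 fell in granulocytes, and 8 and 0 (8) had different responses.

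The 3 libraries per group, at 22829189 to 31895061 read pairs, set the limits, and members at 0 are known only to lie under the floor.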
